A study of Mus musculus with 16 samples.

Results

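The 10 genes described here, Il15, Fndc5, Metrnl, Bdnf, Sparc, Apln, Ostn, Ctsb, Il6 and Lif, encode myokines and were taken by symbol from the 35415 genes of the deposited count and FPKM tables. All 10 symbols were found. Myokines are proteins that skeletal muscle releases, many of them during or after contraction, and that act within the muscle or on distant organs such as bone, fat, vessels and brain. Some are cleaved from a precursor and some are cytokines that immune cells and stromal cells also make, so that RNA of the whole muscle need not come from muscle fibers. Their RNA level does not measure how much protein is released.

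RNA was sequenced from the gastrocnemius, a calf muscle, of wild type male BALB/c mice that were 8 weeks old at purchase, with 4 mice in each of 4 groups. Control (C) mice received saline under the skin and no training, and exercise (E) mice received saline and 4 weeks of forced treadmill running. Tumor-bearing (T) mice were injected under the skin with CT26 cells, a colon carcinoma line of the BALB/c strain, and were not trained, and tumor-bearing plus exercise (TE) mice received both CT26 cells and training. Training began on the day after injection, and the untrained C and T mice were placed on a treadmill that did not move. All mice were anesthetized for the injection, which was made at the left hind limb. The side from which the sequenced muscle was taken is not given in the sources used here. The mice sequenced were drawn at random from larger groups, and not every injected TE mouse formed a tumor. The labels do not give the tumor state of single mice. All libraries carry the same batch number.

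The libraries held between 35628211 and 37635741 counts. The muscle fiber markers Ckm, Acta1, Myh4, Mylpf and Tnnt3 summed to between 58915 and 67414 FPKM in every library, so that the defining markers of the labelled tissue were present. A count of 3 in a library, used here as the floor of detection, equals 0.0797 to 0.0842 CPM, the count scaled to the library total, which covers counting error only. The libraries of C mouse 3, E mouse 1 and TE mouse 4 held the most RNA of lymphocyte and lymph node markers, at 32.3, 33.9 and 95.4 summed FPKM against 4.14 to 21.3 in the other libraries. Each call, and the differences of Apln, Ostn and Sparc that are printed with a log2 fold change and an adjusted p, are also given without these 3 libraries. A bulk library cannot separate fewer cells of a type from less RNA per cell.

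The 10 genes spanned from among the most abundant transcripts of the muscle to the edge of detection. The levels are in FPKM, counts per kilobase of gene scaled to the library total, so that they can be set side by side between genes. Sparc, a collagen-binding glycoprotein of the matrix, was highest with a mean of 175 FPKM over the 16 libraries. It was followed by Ctsb, the lysosomal protease cathepsin B, at 81.7 FPKM. Ostn, which encodes osteocrin or musclin, a ligand of the natriuretic peptide clearance receptor, stood at 40.0 FPKM. Fndc5, the membrane precursor of irisin, stood at 29.2 FPKM. Metrnl, the secreted meteorin-like protein, and Il15, a cytokine that sustains natural killer and memory T cells, were next at 2.70 and 2.51 FPKM. Apln, the ligand of the apelin receptor on endothelial and other cells, had a mean of 0.749 FPKM. Bdnf, a neurotrophin, had 0.143 FPKM, Il6 0.0978 FPKM and Lif, an IL-6 family cytokine, 0.0417 FPKM.

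The ranges over the 16 libraries did not overlap between Sparc and Ctsb, between Ctsb and Ostn, or between Fndc5 and Metrnl. They overlapped for every other pair of neighbors in this order, namely Ostn and Fndc5, Metrnl and Il15, Il15 and Apln, Apln and Bdnf, Bdnf and Il6, and Il6 and Lif. Within single mice, Il15 exceeded Apln in all 16, and Bdnf exceeded Il6 in 14. Ostn exceeded Fndc5, Metrnl exceeded Il15 and Apln exceeded Bdnf in 13 mice each, and Il6 exceeded Lif in 10.

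On GRCm39, all 10 genes are annotated as protein coding. The abundant members lie at chr11:55285317-55314067 (Sparc, minus strand), chr14:63358384-63383372 (Ctsb, plus strand), chr16:27125355-27171028 (Ostn, plus strand) and chr4:129030397-129041865 (Fndc5, plus strand). Metrnl lies at chr11:121592370-121611770 on the plus strand and Il15 at chr8:83054226-83129874 on the minus strand. The members with few counts lie at chr2:109505045-109557475 (Bdnf), chr5:30218112-30224979 (Il6) and chr11:4207557-4222514 (Lif), all on the plus strand.

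Il6 was near zero. It had 1, 0, 1 and 3 counts in the C mice, 3, 3, 3 and 6 in the E mice, 5, 3, 9 and 2 in the T mice and 1, 2, 21 and 3 in the TE mice. It had fewer than 3 counts in 6 of the 16 libraries and was the only one of the 10 genes that failed the filter on low counts. A single TE mouse held the largest count, and the other 3 TE mice were within the range of the C mice. In an edgeR fit without the filter, its log2 fold change was 1.81 in T vs C, with an adjusted p of 0.533. Lif passed the filter with 1 to 17 counts per library, and Bdnf with 11 to 62 counts, so that neither could show a small change at this depth.

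**Figure D1:**
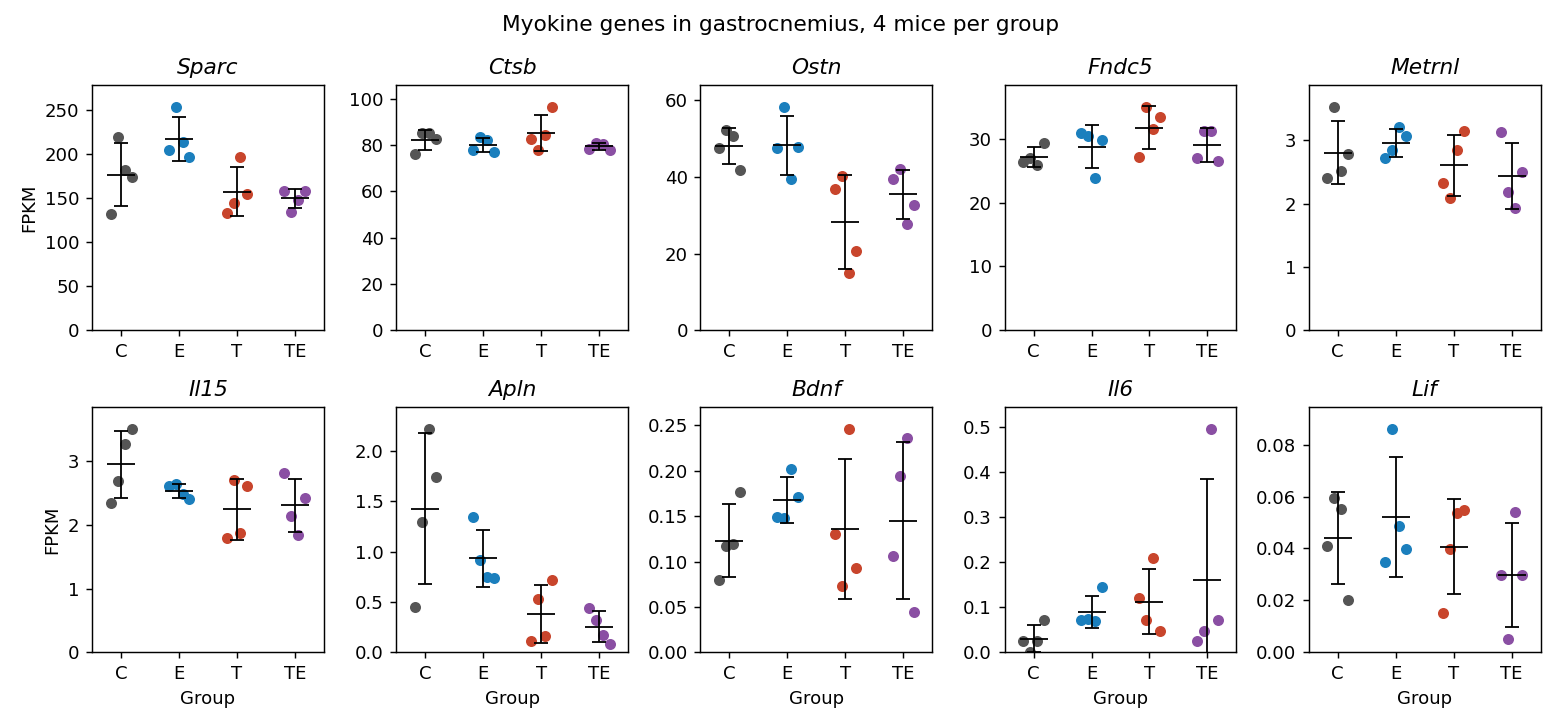
FPKM of the 10 myokine genes in each mouse by group, with 1 panel per gene, points for the 4 mice of a group and a bar for the mean with its SD, which for Il6 in TE runs below the axis. Axes start at 0 and differ in range between panels, from Sparc at 132 to 253 FPKM to Lif at 0.00497 to 0.0859 FPKM, and Apln and Ostn are lower in most T and TE mice than in most C and E mice.

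Apln varied most among the genes that passed the filter, with a highest level 25.6 times its lowest. Its level was 0.455, 1.30, 2.22 and 1.74 FPKM in the C mice and 1.34, 0.914, 0.751 and 0.737 FPKM in the E mice. It was 0.113, 0.527, 0.161 and 0.717 FPKM in the T mice and 0.442, 0.319, 0.171 and 0.0865 FPKM in the TE mice. The lowest C mouse fell within the range of the T mice, whereas every TE mouse lay below every E mouse. Group means were 1.43 ± 0.750 FPKM in C, 0.936 ± 0.282 in E, 0.379 ± 0.291 in T and 0.255 ± 0.158 in TE (SD, n = 4). The gene lies on the minus strand of chromosome X at chrX:47114019-47123775 (GRCm39), and none of its exon bases are shared with another annotated gene.

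The sequence before the start of Apln is printed because this gene showed the largest differences in level, and that of Sparc because it showed the smallest p-value in trained mice. Each is the stretch from 250 to 51 bases before the annotated start, 5′ to 3′ on the strand of the gene, from RefSeq on GRCm38.p6. Capitals mark E-box letters, CANNTG, to which helix-loop-helix factors such as the myogenic regulators bind.
Apln, chrX:48034904-48035103, minus strand: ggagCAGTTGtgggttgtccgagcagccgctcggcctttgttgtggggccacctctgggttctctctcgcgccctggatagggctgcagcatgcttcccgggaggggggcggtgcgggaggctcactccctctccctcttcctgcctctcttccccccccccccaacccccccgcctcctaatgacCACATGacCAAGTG
Sparc, chr11:55420131-55420330, minus strand: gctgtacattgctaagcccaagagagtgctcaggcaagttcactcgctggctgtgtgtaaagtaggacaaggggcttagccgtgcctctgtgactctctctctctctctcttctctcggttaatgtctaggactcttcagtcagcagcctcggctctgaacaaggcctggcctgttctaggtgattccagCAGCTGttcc

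The Apln stretch held 3 E-boxes, and the Sparc stretch held 1. E-box letters occur in 59.0% of 32851 such stretches of annotated mouse genes, so their presence is common. Neither stretch held ACGTG, the core of a hypoxia response element, which occurs in 12.9% of all stretches, or TTCNNNGAA, the letters of a STAT site, which occur in 5.76%. Both strands were searched, and an E-box of the form CACGTG also holds ACGTG. Of the 10 genes, 7 had such stretches in the table, 13 in all because Bdnf has 7 starts. Of these 13, 8 held an E-box, 2 held ACGTG, in Fndc5 and Bdnf, and 1 held TTCNNNGAA, in Bdnf. A match is a description of letters and not of bound factors.

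The first comparison asked how the tumor altered these genes in untrained mice. None of the 9 genes tested passed the threshold of an adjusted p under 0.05 in T vs C by edgeR's quasi-likelihood test, against 0.678% of all 14749 genes tested, a share that ranged from 0.107% to 1.70% with 1 mouse left out. DESeq2 also called 0 of them. At an unadjusted p under 0.05, 4 of the 9 passed, namely Apln, Ostn, Fndc5 and Il15, against 14.2% of all genes. The log2 fold change of Apln was -1.88 (SE 0.546, 95% interval -3.03 to -0.72, edgeR adjusted p = 0.119). Without the 3 libraries rich in lymph node markers it was -1.59 (edgeR adjusted p = 0.217).

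Ostn was the only member whose T and C mice did not overlap. Its level was 47.7, 52.3, 50.7 and 41.7 FPKM in the C mice and 36.9, 40.3, 14.9 and 20.8 FPKM in the T mice. T mice 3 and 4 were far below the other 2 T mice. Groups that did not overlap, with T lower, occurred for 2.83% of all genes tested. The log2 fold change was -0.73 (SE 0.238, 95% interval -1.24 to -0.23, edgeR adjusted p = 0.169), and -0.72 without the 3 libraries rich in lymph node markers (edgeR adjusted p = 0.269). E mice, at 48.3 ± 7.65 FPKM, were at the level of C mice, at 48.1 ± 4.65 FPKM, and TE mice were at 35.5 ± 6.44 FPKM (SD, n = 4). All 5 macrophage markers were higher in T than in C, none of them called, and they summed to 12.3 to 23.4 FPKM in C, 12.9 to 24.8 in E, 17.0 to 33.4 in T and 19.6 to 25.7 in TE. Over the 16 libraries, Ostn and this sum had a Pearson r of -0.70 on log2 values, and -0.55 after removal of group means. All 5 neutrophil markers were called higher in T vs C by edgeR, 3 of them (S100a9, Ngp and Ltf) also without those 3 libraries, and they summed to 1.22 to 7.17 FPKM in C, 1.27 to 8.04 in E, 14.2 to 81.1 in T and 19.5 to 33.6 in TE. Their sum had r = -0.64 with Ostn, and -0.18 after removal of group means. The sums of 5 endothelial and of 5 satellite cell markers each had r = -0.65 with Ostn after removal of group means, and -0.05 and -0.49 before it. The part of these cells in the result was not tested.

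Fndc5 and Il15 differed less. Fndc5 was 27.1 ± 1.52 FPKM in C and 31.8 ± 3.38 FPKM in T (SD, n = 4), which is 0.25 on the log2 scale (edgeR adjusted p = 0.249). The T mouse with the lowest level, 27.1 FPKM, lay within the C range of 25.8 to 29.3 FPKM. Il15 was 2.35, 2.69, 3.27 and 3.50 FPKM in the C mice and 1.80, 2.70, 1.87 and 2.61 FPKM in the T mice, which is -0.37 on the log2 scale (edgeR adjusted p = 0.288). All 5 lymphocyte and lymph node markers were also lower in T than in C, 4 of them at an unadjusted p under 0.05 and none called, and they summed to 8.61 to 32.3 FPKM in C, 13.6 to 33.9 in E, 4.14 to 10.9 in T and 4.58 to 95.4 in TE. Glycam1 was at 0 in every T mouse. Il15 had r = 0.45 with their sum, and 0.41 after removal of group means. With the neutrophil and macrophage sums it had r = -0.52 and -0.43, and -0.15 and -0.20 after removal of group means. With the satellite cell and muscle fiber sums it had r = -0.43 and -0.37, and -0.41 and -0.44 after that removal. The part of these cells in the Il15 difference was not tested. Counts of Fndc5, Il15, Bdnf, Ostn and Ctsb are less certain, since some of their exon bases are shared with another annotated gene. Ctsb, for example, shares them with Fdft1 on the opposite strand, and Fndc5 shares some with Gm15906 on its own strand. The strand setting of the counting is not given in the sources used here.

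The other 5 tested genes gave no unadjusted p under 0.05 in T vs C. Ctsb had the smallest spread relative to its mean of the 10 genes, with an SD of 4.90 FPKM over the 16 libraries, and its log2 fold change was 0.08 with a 95% interval of -0.05 to 0.21. Metrnl had a log2 fold change of -0.08 with an interval of -0.41 to 0.24, and Sparc of -0.14 with an interval of -0.40 to 0.12. The intervals of Bdnf, -0.79 to 1.12, and of Lif, -1.28 to 1.10, include a 2-fold rise, so that little can be said of these genes.

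**Figure D2:**
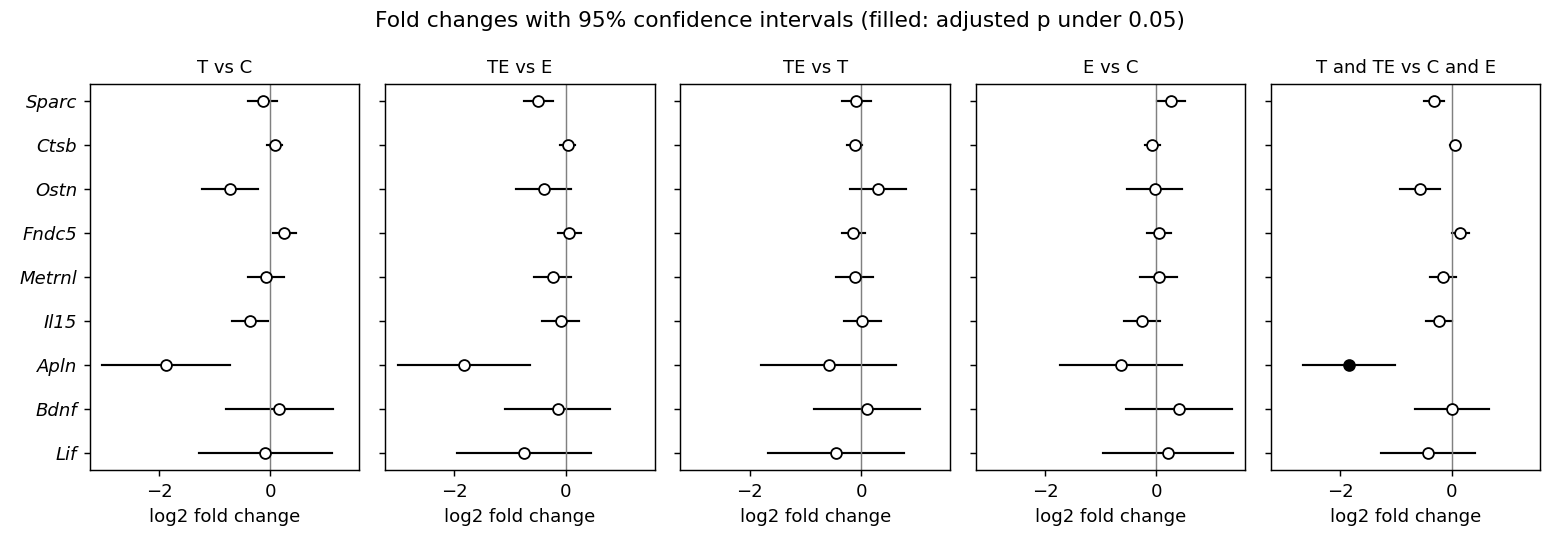
Log2 fold changes of the 9 tested myokine genes with 95% intervals from edgeR, with 1 panel each for T vs C, TE vs E, TE vs T, E vs C and both tumor-bearing groups against both tumor-free groups. A filled point marks an adjusted p under 0.05 over all genes tested, and the single filled point is Apln in the last panel at -1.85.

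The next comparison asked whether the tumor altered these genes in trained mice. In TE vs E, 0 of 9 genes passed by edgeR, against 0.231% of all genes tested, and 2 of 9, Sparc and Apln, had an unadjusted p under 0.05, against 9.23%. DESeq2 called 1 of them, Sparc (adjusted p = 0.0122), against 1.22% of all genes in that test. Sparc was 205, 253, 214 and 197 FPKM in the E mice and 158, 135, 148 and 158 FPKM in the TE mice. The groups did not overlap, as was also so for Apln, against 3.95% of all genes that were lower in every TE mouse. The log2 fold change of Sparc was -0.49 (SE 0.123, 95% interval -0.75 to -0.23, edgeR adjusted p = 0.123), and without the 3 libraries rich in lymph node markers it was -0.53 (edgeR adjusted p = 0.331). The log2 fold change of Apln was -1.82 (SE 0.562, edgeR adjusted p = 0.257), and -1.31 without those 3 libraries (edgeR adjusted p = 0.633).

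Sparc is also made by fibroblasts and endothelial cells. All 5 fibroblast markers were lower in TE than in E, 4 of them at an unadjusted p under 0.05 and none after adjustment. Their summed level was 116 to 164 FPKM in C, 171 to 227 in E, 98.5 to 177 in T and 117 to 153 in TE. The 5 endothelial markers summed to 131 to 166 FPKM in C, 167 to 174 in E, 130 to 178 in T and 122 to 161 in TE, and in TE vs E 3 were lower, each at an unadjusted p under 0.05, 2 were higher and none was called. All 5 Schwann cell markers and all 5 adipocyte markers were lower in TE than in E, with none called, while all 5 muscle fiber markers were higher, 2 of them at an unadjusted p under 0.05 and none called. The Schwann cell sum was 171 to 396 FPKM in C, 133 to 329 in E, 121 to 252 in T and 120 to 172 in TE, and the adipocyte sum was 12.1 to 69.4, 39.1 to 216, 11.7 to 156 and 36.8 to 88.3 FPKM in the same order. No marker of these 4 lists was at 0 in a group. Over the 16 libraries, Sparc had a Pearson r of 0.77 with the fibroblast sum and of 0.85 with the endothelial sum on log2 values, and of 0.64 and 0.78 after removal of group means. It had r = 0.70 with the Schwann cell sum and 0.58 with the adipocyte sum, and 0.82 and 0.72 after removal of group means. With the muscle fiber sum it had r = -0.62, and -0.48 after removal of group means. All 5 neutrophil markers were higher in TE than in E, 4 of them at an unadjusted p under 0.05 and none called. Sparc had r = -0.38 with their sum, and 0.42 after removal of group means. These libraries share their group structure, and the part of these cells in the result was not tested.

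**Figure D3:**
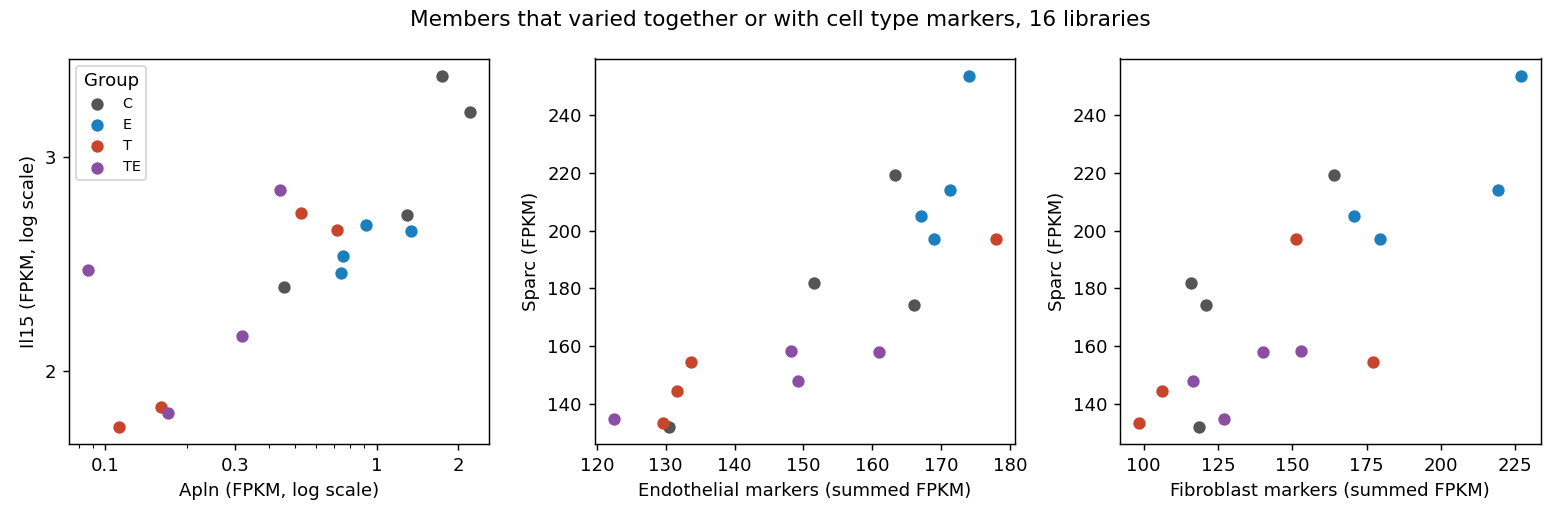
FPKM of pairs of measures in the 16 libraries, colored by group: Apln against Il15 on log axes, and Sparc against the summed FPKM of 5 endothelial and of 5 fibroblast markers. Libraries high in Il15 were high in Apln, with r = 0.79, and Sparc rose with both sums, with r = 0.85 and 0.77.

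What training altered was asked first in tumor-bearing mice. In TE vs T, 0 of 9 genes passed by edgeR and by DESeq2, 0 had an unadjusted p under 0.05, against 5.88% of all genes tested, and edgeR called 0% of all genes. The smallest adjusted p was 0.860, for Ctsb, at a log2 fold change of -0.12. Ostn was 0.31 higher in TE on the log2 scale, with a 95% interval of -0.19 to 0.81, and Apln was lower, at -0.58 with an interval of -1.79 to 0.63, so that neither a rise nor a fall can be read from these mice. Without the 3 libraries rich in lymph node markers, Ostn was at 0.36 and Apln at -0.29 (edgeR adjusted p = 0.995 for each).

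In E vs C, 0 of 9 genes passed by edgeR and by DESeq2, against 0.0881% of all genes tested by edgeR. Sparc had an unadjusted p under 0.05, against 14.2% of all genes, with 217 ± 24.9 FPKM in E and 177 ± 35.6 FPKM in C (SD, n = 4) and a difference of 0.27 on the log2 scale (edgeR adjusted p = 0.340), and of 0.30 without the 3 libraries rich in lymph node markers (edgeR adjusted p = 0.356). With 1 mouse left out in turn, this difference ranged from 0.16 to 0.38. All 5 fibroblast markers and all 5 adipocyte markers were higher in E than in C, 5 and 3 of them at an unadjusted p under 0.05 and none called, and their part in the Sparc difference was not tested. The E and C mice overlapped in Sparc, since the C mouse with 219 FPKM exceeded 3 of the 4 E mice. Fndc5 and Metrnl, both known as exercise-responsive in muscle, had log2 fold changes of 0.05 (95% interval -0.16 to 0.26) and 0.04 (-0.29 to 0.37), and Fndc5 was at -0.02 without those 3 libraries. The paper places collection at the end of the 4 weeks and does not give the time since the last run. The interaction of tumor and exercise, the difference of the training effect between tumor-bearing and tumor-free mice, was called for 0 of 9 genes by both tools. Over all genes, edgeR called 0% and DESeq2 0.142%. In edgeR, 0 of 9 genes had an unadjusted p under 0.05, against 9.21% of all genes, and the smallest adjusted p was 0.555, for Sparc. The unadjusted p of Sparc was 0.0474 in DESeq2 and 0.0415 in edgeR with no filter on low counts. These comparisons share groups with those above, so their values are not separate evidence.

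Both tumor-bearing groups were then set against both tumor-free groups, a contrast added after the values were seen. The mean levels of Apln and Ostn were lower in T than in C and in TE than in E, but neither gene had passed in either comparison, and in trained mice the Ostn levels overlapped. Apln was called lower in this contrast, with a log2 fold change of -1.85, a fold of 0.278 (SE 0.392 on the log2 scale, 95% interval -2.67 to -1.02, edgeR adjusted p = 0.0231). It was 1 of 9 genes called, against 1.36% of all genes tested, of which 0.624% were lower. It also passed the added condition of a fold over 2 or under 0.5, met by 0.366% of all genes. Without the 3 libraries rich in lymph node markers, Apln was at -1.45 and was not called (edgeR adjusted p = 0.140). It was also not called without C mouse 3, C mouse 4, E mouse 1 or TE mouse 3 alone, with edgeR adjusted p of 0.0519, 0.0546, 0.0504 and 0.0606. It was not called by limma on log2(FPKM + 1) with no filter either (adjusted p = 0.0797). Sparc, at -0.32 (adjusted p = 0.0885), and Ostn, at -0.57 (adjusted p = 0.115), did not pass in the main edgeR fit. Sparc passed in edgeR with no filter on low counts (adjusted p = 0.0470) and in DESeq2 (adjusted p = 0.0161). Without the 3 libraries rich in lymph node markers, Sparc was at -0.34 (edgeR adjusted p = 0.197) and Ostn at -0.54 (edgeR adjusted p = 0.308). The matching contrast of both trained groups against both untrained groups called 0 of 9 genes by edgeR and by DESeq2, against 0.00678% and 0.608% of all genes. Without T mouse 3, edgeR called 0.695% of all genes. Ctsb alone had an unadjusted p under 0.05 in edgeR, against 10.8% of all genes.

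Of the 5 endothelial markers, Kdr and Emcn were called lower in the tumor contrast by edgeR, at -0.69 (adjusted p = 0.00233) and -0.40 (adjusted p = 0.0189). Of the other 3, Cdh5 was at -0.20, Tie1 at -0.04 and Pecam1 at 0.20, none of them called. In T vs C alone, Kdr was called lower, at -0.68 (edgeR adjusted p = 0.0457, and 0.0825 without the 3 libraries rich in lymph node markers), Emcn was at -0.47 (edgeR adjusted p = 0.0740, and 0.0820 without them) and Pecam1 was at 0.37 (edgeR adjusted p = 0.231). In the tumor contrast without those 3 libraries, Kdr was still called (edgeR adjusted p = 0.0199) and Emcn was not (edgeR adjusted p = 0.0765). All 5 neutrophil markers were called higher in the tumor contrast, and 4 of them without those 3 libraries, Ltf being the exception (edgeR adjusted p = 0.0571). Retnlg was at 0 in every C mouse, and no other marker of the list was at 0 in a whole group. Over the 16 libraries, Apln had a Pearson r of 0.25 with the endothelial sum and of -0.69 with the neutrophil sum on log2 values, and of -0.15 and -0.04 after removal of group means. In the same contrast all 5 Schwann cell markers were lower, 4 of them at an unadjusted p under 0.05, and all 5 macrophage markers were higher, 3 of them at that threshold, with none called. Apln had r = 0.43 with the Schwann cell sum and -0.43 with the macrophage sum, and 0.01 and -0.09 after removal of group means. Of the muscle fiber markers, 4 were higher, 2 of them at that threshold, and 1 was lower, with none called. Apln had r = -0.48 with their sum, and -0.38 after removal of group means. All 5 lymphocyte and lymph node markers were lower, 0 of them at that threshold, with r = 0.28 and 0.04. With the adipocyte sum, Apln had r = 0.19, and 0.49 after removal of group means. The part of these cells in the Apln difference was not tested.

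Apln and Il15 moved together from mouse to mouse, with a Pearson r of 0.79 and a Spearman rho of 0.72 over the 16 libraries, and r of 0.77 after removal of group means. C mouse 3 and C mouse 4 were highest in both. The tested genes whose log2 CPM was most like that of Apln were Plxnd1 (r = 0.95), Tmem204 (0.92) and Sez6l2 (0.92), and those most like Il15 were Kcnn2 (0.89), Tmem204 (0.85) and Tmem185b (0.85). For Sparc they were Shc4 (0.92), Itgb4 (0.91) and Secisbp2l (0.91), and for Ostn they were Gm34256 (0.87), Pyurf (0.86) and Acp6 (0.86). For Fndc5 they were Zfp651 (0.85), Rasa4 (0.84) and Gbe1 (0.82), and for Metrnl, Ckap4 (0.88), Cr1l (0.84) and Dact3 (0.80). For Ctsb they were Mcu (0.85), Decr1 (0.84) and Btbd1 (0.80), for Bdnf, Fermt2 (0.83), Iars (0.80) and Bcar3 (0.80), and for Lif, Col11a1 (0.78), Rbm46 (0.78) and Trim46 (0.77). These are the highest correlations among all genes tested over the same 16 libraries, which also share the group differences, and carry no test. Metrnl had r = 0.69 with the fibroblast marker sum, and 0.81 after removal of group means.

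Of 16 receptors of these ligands, none was called by edgeR in any of the comparisons. At an unadjusted p under 0.05, 3 were higher and 1 lower in T vs C, 1 was higher and 5 were lower in TE vs T, 2 were higher in E vs C and 4 were lower in TE vs E, against 14.2%, 5.88%, 14.2% and 9.23% of all genes. In the interaction 2 were lower, against 9.21%. The receptors differed widely in level. Il2rb, a chain of the IL-15 receptor, had a mean of 0.105 FPKM in C, 0.105 in E, 0.0209 in T and 0.135 in TE, where the highest mouse had 0.463 FPKM. Il6st, the gp130 subunit through which both IL-6 and LIF signal, had group means of 30.1 to 36.5 FPKM, and Lifr had 7.49 to 8.66 FPKM, although their ligands were near the edge of detection. Il6st had a log2 fold change of 0.30 in T vs C (edgeR adjusted p = 0.166) and Il6ra of 0.87 (adjusted p = 0.286). Aplnr, the apelin receptor, was 7.32 ± 1.65 FPKM in C, 6.80 ± 1.27 in E, 6.10 ± 1.94 in T and 4.48 ± 0.795 in TE (SD, n = 4), with a log2 fold change of -0.55 in TE vs E (edgeR adjusted p = 0.403). Npr3, the clearance receptor that binds the Ostn product, was at 0.69 in T vs C (adjusted p = 0.391) and Il15ra at 0.12 (adjusted p = 0.648), and Ntrk2, the BDNF receptor, was at 0.68 in E vs C (adjusted p = 0.213).

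Of 12 genes for processing and regulation of these factors, such as Furin and Ppargc1a, 0 were called by edgeR in any comparison. At an unadjusted p under 0.05, 3 of the 12 passed in T vs C and 3 in E vs C, each of them higher, against 14.2% of all genes in either comparison. In TE vs E, 1 was higher and 2 were lower at that threshold, against 9.23% of all genes, in TE vs T 1 was higher, against 5.88%, and in the interaction 3 were lower, against 9.21%. Of 20 relatives of the members, 15 were tested and 0 were called in the pairwise comparisons. The shares of all genes called were 0.678% in T vs C, 0% in TE vs T, 0.0881% in E vs C and 0.231% in TE vs E. At an unadjusted p under 0.05, 4 of the 15 were lower in T vs C, against 14.2%, and 4 in TE vs E, against 9.23%. In E vs C 1 was higher, against 14.2%, in TE vs T 0 passed, against 5.88%, and in the interaction 1 was lower, against 9.21%. Of 31 other secreted factors, 28 were tested. At an unadjusted p under 0.05, 7 were higher and 3 lower in T vs C, and 2 higher and 2 lower in TE vs T. In E vs C 6 were higher and 1 lower, and in TE vs E 2 were higher and 4 lower. The shares of all genes were 14.2%, 5.88%, 14.2% and 9.23%. In the interaction 1 was higher and 7 were lower, against 9.21%. After adjustment 1 was called, both in E vs C, against 0.0881% of all genes, and in TE vs E, against 0.231%. It was Fst, which encodes follistatin, an inhibitor of myostatin and activins. Fst was 1.22 ± 0.147 FPKM in C, 2.56 ± 0.138 in E, 1.22 ± 0.240 in T and 1.48 ± 0.227 in TE (SD, n = 4). It was higher in E than in C, by 1.04 on the log2 scale (SE 0.149, edgeR adjusted p = 0.0160), and lower in TE than in E, at -0.74 (SE 0.147, edgeR adjusted p = 0.0452). The first call was lost without C mouse 1 or 3 or E mouse 2 or 4, with adjusted p of up to 0.0920. The second was lost when any single E or TE mouse was left out, with adjusted p of 0.0579 to 0.172, and 9 of all 19 alternatives kept it. Without the 3 libraries rich in lymph node markers, Fst was at 1.06 in E vs C (edgeR adjusted p = 0.0492) and at -0.67 in TE vs E (edgeR adjusted p = 0.224). The 5 fibroblast markers that were higher in E than in C had a median log2 fold change of 0.65, and all 5 were lower in TE than in E, with a median of -0.46. The 5 adipocyte markers had a median of 1.44 in E vs C and were all lower in TE than in E, with a median of -0.55. Their part in the Fst differences was not tested. In the tumor contrast added later, Il1b, a proinflammatory cytokine, was called higher at 2.07 (edgeR adjusted p = 0.0186) and Sparcl1, a relative of Sparc, lower at -0.27 (edgeR adjusted p = 0.0272), and both were named after their values were seen. They were 1 of 28 other secreted factors and 1 of 15 relatives called there, against 1.36% of all genes. Neither was called without the 3 libraries rich in lymph node markers (edgeR adjusted p = 0.121 and 0.0677).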

How the data were processed

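Each mouse was placed in its group, with its number, from the labels. The authors trimmed the reads with fastp 0.20.1, aligned them to GRCm39 with HISAT2 2.1.0 and deposited counts per gene from HTSeq 0.11.2, without normalization, and the submitters' notes also name DESeq2. Versions and build are from the submitters' processing notes. The annotation release and strand setting are not given in the sources used here. The paper names version V5 of the library kit and the labels version V6. FPKM values were deposited as well and are the counts scaled by the length of the gene and the total of the library, a relation tested on 14819 genes (largest relative deviation 5.93e-16). The tables held 0 columns of other samples. Replicates of a group differed by more than sampling noise (chi-square per degree of freedom 13.1 to 64.1), so none was counted as a duplicate.

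Counts of all 16 libraries, 35628211 to 37635741 in each, were fitted with edgeR 4.0.16 in R 4.3.3 (filterByExpr, which kept 14749 of 23837 genes with a count, TMM factors of 0.947 to 1.05, glmQLFit and glmQLFTest with 1 coefficient per group, two-sided). P-values were adjusted by the Benjamini-Hochberg method over all genes tested, and a call is an adjusted p under 0.05. The test was first run on simulated counts. Log2 CPM for correlations used a prior count of 2. Gene positions come from GENCODE on GRCm39 and sequences before the start from RefSeq on GRCm38.p6.

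The members, gene lists and marker lists were chosen with earlier results of these data known, and the contrasts over both tumor states and both training states were added after the values were seen. The named genes are the 10 members, genes of the other lists with an adjusted p under 0.05 in a pairwise comparison or the interaction, the receptors Il15ra, Ntrk2, Aplnr, Npr3, Il6ra, Il6st and Lifr, and the 3 genes most correlated with each tested member. Markers are named from the marker lists. Il2rb, Furin, Ppargc1a, Il1b and Sparcl1 are named outside this rule, after their values were seen. Near zero means fewer than 3 counts in at least 8 libraries, or failing the filter. Alternatives were DESeq2 1.42.0, other size factors, no filter, a robust fit, a replicate block, a fit of only the groups compared, limma 3.58.1 on log2(FPKM + 1) and log2(FPKM + 0.1), each library left out, and C mouse 3, E mouse 1 and TE mouse 4 left out together. The counts do not separate PCR copies from molecules. Plots were made in Python 3.11.15 (matplotlib 3.10.9).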

Additional observations from a re-analysis of the deposited data

Results flagged for a closer look

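Of 40 member and group pairs, 3 held a mouse whose gap to the nearest other mouse was over Dixon's 95% limit for 4 samples as a share of the group's range. Chance alone passes this limit in about 1 of 20 groups of normally spread values. Fndc5 in E mouse 3 was 23.8 FPKM, and the nearest E mouse was at 29.8 FPKM (gap ratio 0.840). Il6 in E mouse 4 was 0.144 FPKM, from 6 counts, and the nearest E mouse was at 0.0727 FPKM (gap ratio 0.961). The other E mice had 3 counts each, and the rate of 1 in 20 need not hold for Il6 at such low counts. Il6 in TE mouse 3 was 0.495 FPKM, from 21 counts, and the nearest TE mouse was at 0.0716 FPKM (gap ratio 0.899).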

How the results depend on the processing

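In the 5 comparisons fixed in the design, 0 members were called under every alternative except in TE vs E, where DESeq2 and a fit of only the groups compared each called 1, Sparc (adjusted p = 0.0122 and 0.0320). In the contrast of both tumor-bearing with both tumor-free groups, where edgeR called 1, DESeq2 and the fit with no filter each called 2 (Apln and Sparc), against 3.05% and 1.12% of all genes, while limma on log2(FPKM + 1) with no filter (Apln adjusted p = 0.0797) and leaving out C mouse 3, E mouse 1 and TE mouse 4 together each called 0. Leaving out each mouse in turn called from 0 to 2, with 0 without C mouse 3, C mouse 4, E mouse 1 or TE mouse 3 and 2 without C mouse 1, T mouse 2 or T mouse 3. The replicate numbers stand for different mice, and only 5 of 24 same-numbered pairs had a correlation over 0.1. With a replicate block, this contrast still called 1, but it was Ostn (adjusted p = 0.0293) in place of Apln (adjusted p = 0.0509), and the pairwise comparisons and the interaction called 0. The cause of these changes was not tested. Over all genes, T vs C called 100 by edgeR, 432 by DESeq2 and 12 by limma on log2(FPKM + 1) with no filter, E vs C 13, 252 and 6, and TE vs E 34, 180 and 17. With 1 mouse left out, edgeR called 16 (without C mouse 4) to 255 (without T mouse 2) in T vs C, 0 (without C mouse 1, C mouse 3 or E mouse 4) to 35 (without E mouse 1) in E vs C, 18 to 33 in TE vs E and 130 to 281 in the tumor contrast. In the contrast of trained with untrained groups, edgeR called 1 with all libraries and 104 without T mouse 3. The shares over all genes given beside the members' counts are therefore themselves uncertain. Apln in T vs C had an adjusted p of 0.0703 to 0.307 and Ostn of 0.0527 to 0.333 over the alternatives, and both stayed lower. Depth limits Il6, Lif and Bdnf, and 4 mice per group leave wide intervals for Apln.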
